A study of Mus musculus with 9 samples.

Results

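The enzymes and recruiting proteins that write, remove and read DNA methylation were followed in RAW264.7 macrophages with and without an intact C/EBPδ. The set held 9 genes, chosen by name and matched by symbol to the Ensembl identifiers of the count files: Dnmt1, Dnmt3a, Dnmt3b, Uhrf1, Tet1, Tet2, Tet3, Trim28 and Setdb1. All 9 were found among the 55487 identifiers counted in every library, and 7 of them passed the filter on low counts, which left 14312 genes to test. Dnmt3b and Tet1 did not pass it.

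RAW264.7 is a mouse macrophage line that grows in culture, and none of the cells had been stimulated. RNA of 3 genotypes was sequenced, with 3 libraries each: wild-type cells, C/EBPδ knock-out cells and cells with a C/EBPδ that lacks its transactivation domain but keeps DNA binding (ΔTAD). The edited lines were made in the same parental line with Cas9 and guides on either side of the coding sequence for that domain, followed by sorting and growth from single cells. Clones in which the deletion shifted the reading frame served as knock-out cells, so both edited genotypes carry a deletion in the same stretch of Cebpd and went through the same selection. The descriptions speak of 3 independent clones without saying whether they are 3 per genotype. The p-values below therefore measure the spread between libraries, which may be technical.

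Methylation of cytosine in CpG pairs is copied at each round of replication by Dnmt1, which Uhrf1 brings to freshly made DNA by binding CpG pairs that are methylated on only the parental strand. Dnmt3a and Dnmt3b methylate sites that carried no mark, and the TET dioxygenases oxidise methylated cytosine and so start its removal. Trim28 is a corepressor that KRAB zinc finger proteins bring to retroelements and imprinted regions, where it recruits Setdb1, a methyltransferase for H3K9. In blood and macrophage biology, Dnmt3a and Tet2 are best known as genes that are often mutated in clonal haematopoiesis, and Tet2 as a brake on inflammatory cytokine genes.

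Start regions of 3 genes are shown because they belong to the gene with the largest increase (Uhrf1), the gene with the largest decrease (Tet2) and the gene without a single read (Dnmt3b). Each is the run of 250 bases before a RefSeq start site in GRCm38.p6, written 5′ to 3′ on the strand of the gene and lying outside every annotated exon. Uhrf1 is shown for chr17:56304063-56304312 (plus strand), Tet2 for chr3:133544391-133544640 (minus strand) and Dnmt3b for chr2:153649199-153649448 (plus strand). The Uhrf1 and Tet2 stretches lie within the annotated span of these genes, before the start of one of several transcripts. Capitals mark the CCAAT box, in either orientation, and the E2F motif (TTTGGCGC, TTTCGCGC, TTTCCCGC or TTTGCCGC, on either strand).
Uhrf1: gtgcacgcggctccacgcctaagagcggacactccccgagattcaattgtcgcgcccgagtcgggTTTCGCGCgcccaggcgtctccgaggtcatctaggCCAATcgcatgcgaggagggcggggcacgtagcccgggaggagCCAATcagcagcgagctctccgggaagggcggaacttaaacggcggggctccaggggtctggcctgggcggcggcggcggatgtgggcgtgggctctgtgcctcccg
Tet2: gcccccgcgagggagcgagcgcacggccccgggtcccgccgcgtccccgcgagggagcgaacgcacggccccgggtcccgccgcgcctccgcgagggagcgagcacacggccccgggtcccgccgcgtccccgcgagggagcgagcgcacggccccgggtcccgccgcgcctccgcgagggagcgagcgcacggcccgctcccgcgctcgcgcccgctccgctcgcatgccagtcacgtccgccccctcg
Dnmt3b: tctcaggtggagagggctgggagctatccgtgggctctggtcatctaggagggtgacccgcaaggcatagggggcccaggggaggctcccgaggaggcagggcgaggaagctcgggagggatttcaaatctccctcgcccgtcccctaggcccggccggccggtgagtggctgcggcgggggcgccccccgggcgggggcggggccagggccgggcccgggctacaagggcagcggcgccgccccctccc

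The Uhrf1 stretch holds 2 CCAAT boxes and 1 E2F motif, and the Tet2 and Dnmt3b stretches hold neither. Of the 32851 mouse start regions of the same length, 33.8% hold a CCAAT box, 1.86% an E2F motif and 0.737% both. The 9 genes have 14 start regions in all, of which 2 hold both motifs, 1 of Uhrf1 and 1 of Dnmt1. The Dnmt1 region overlaps an exon of Dnmt1 and is not printed. With the 50 bases after the start included, the Tet2 region has 57 CpG pairs, more than 99.8% of all start regions, whose median is 7. That of Dnmt3b has 30 and that of Uhrf1 33. A start region rich in CpG pairs (at least 50% GC and at least 0.6 times the CpG pairs that base composition predicts) made up 9 of these 14 regions, against 33.5% of all regions. The C/EBP motif TTGCNNAA, searched on both strands, occurred before 9.56% of all starts and before none of the 14. These counts describe letters in short windows and say nothing about binding.

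Total counts on genes ran from 16113306 to 20981829 per library. The library of ΔTAD replicate 1 stood apart: a single transcript, CT010467.1 (ENSMUSG00000106106), took 11% of its counts and between 0.303% and 1.16% in the others. Its scaling factor of 0.888 lay below all others. Where leaving this library out changed the call of one of the 9 genes, or moved a count of companion genes printed below by 1.5 times or more, the value without it is given as well. Macrophage identity was clear from 11 of 12 markers that could be tested, while Mertk was at 2 counts or fewer in every library. The summed level of the 12 markers was 3850 to 4080 CPM (counts scaled by TMM to a common library size) in wild-type, 5070 to 5480 in knock-out and 7620 to 7780 in ΔTAD macrophages. In knock-out macrophages 8 were called higher (adjusted p under 0.01) and 1 lower, 81.8% of the 11 tested, beside 45.2% of all tested genes. In ΔTAD macrophages 9 were called higher and 1 lower, 90.9% of the 11, beside 49.7% of all tested genes. Those with the largest changes were Lyz2 (lysozyme), with log2 fold changes of 0.86 and 1.84, Adgre1 (F4/80), with 1.45 and 1.71, Fcgr1, with −1.14 and −0.44, and Spi1 (PU.1), with 0.29 and 0.79. The part of this shift in the results below was not tested. Of 16 markers of other cell types, 14 were at or under 3 counts in every library, and their summed level was at most 2.99 CPM. Only Pecam1 could be tested; its wild-type level was 2.29 ± 0.336 CPM (SD, n = 3), its log2 fold change in knock-out cells −1.97. With 3 counts in each ΔTAD library, wild-type was 14.4-fold higher than ΔTAD (95% counting interval 7.33 to 32.1). Cebpd itself was at 4.9 to 7.29 CPM in all libraries and was not called in either edited genotype (adjusted p = 0.085 and 0.0931). The deletion leaves most of its transcript in place, so this level does not check the labels.

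Among the 9 genes, both maintenance factors were higher in the edited macrophages and Tet2 was lower in both genotypes. The log2 fold changes of Uhrf1, 0.48 and 0.38, stood beside medians of 0.48 and 0.50 over the other tested genes of its chromosome. Both Dnmt1 calls were lost with library size as the only scaling. Uhrf1 was 39.9% higher in knock-out and 30.1% higher in ΔTAD macrophages, Dnmt1 11.8% and 16.7% higher, and Tet2 21.6% and 21.8% lower. Trim28 was lower in knock-out macrophages, by 15.3%, and its change of −6.74% in ΔTAD macrophages missed the threshold. Dnmt3a rose and Tet3 fell in ΔTAD macrophages, by 16.4% and 15.3%. In knock-out against wild-type macrophages 2 genes were called higher and 2 lower, which is 57.1% of the 7 tested, while 45.2% of all tested genes were called. In ΔTAD against wild-type macrophages 3 were called higher and 2 lower, 71.4% of the 7, beside 49.7% of all tested genes. None of the changes reached a log2 fold change of 1, a size that, together with the call, 7.66% of all genes reached in knock-out and 9.31% in ΔTAD against wild-type macrophages and 3.93% in knock-out against ΔTAD macrophages. Over the 7 genes the median was 0.01 (knock-out) and 0.10 (ΔTAD) on the log2 scale, beside 0.00 over all tested genes in both. A gene was called at an adjusted p under 0.01 in the quasi-likelihood test of edgeR, with Benjamini-Hochberg adjustment over all genes tested. In a bulk sample, fewer cells that use a gene and less RNA of it per cell cannot be told apart.

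**Figure D1:**
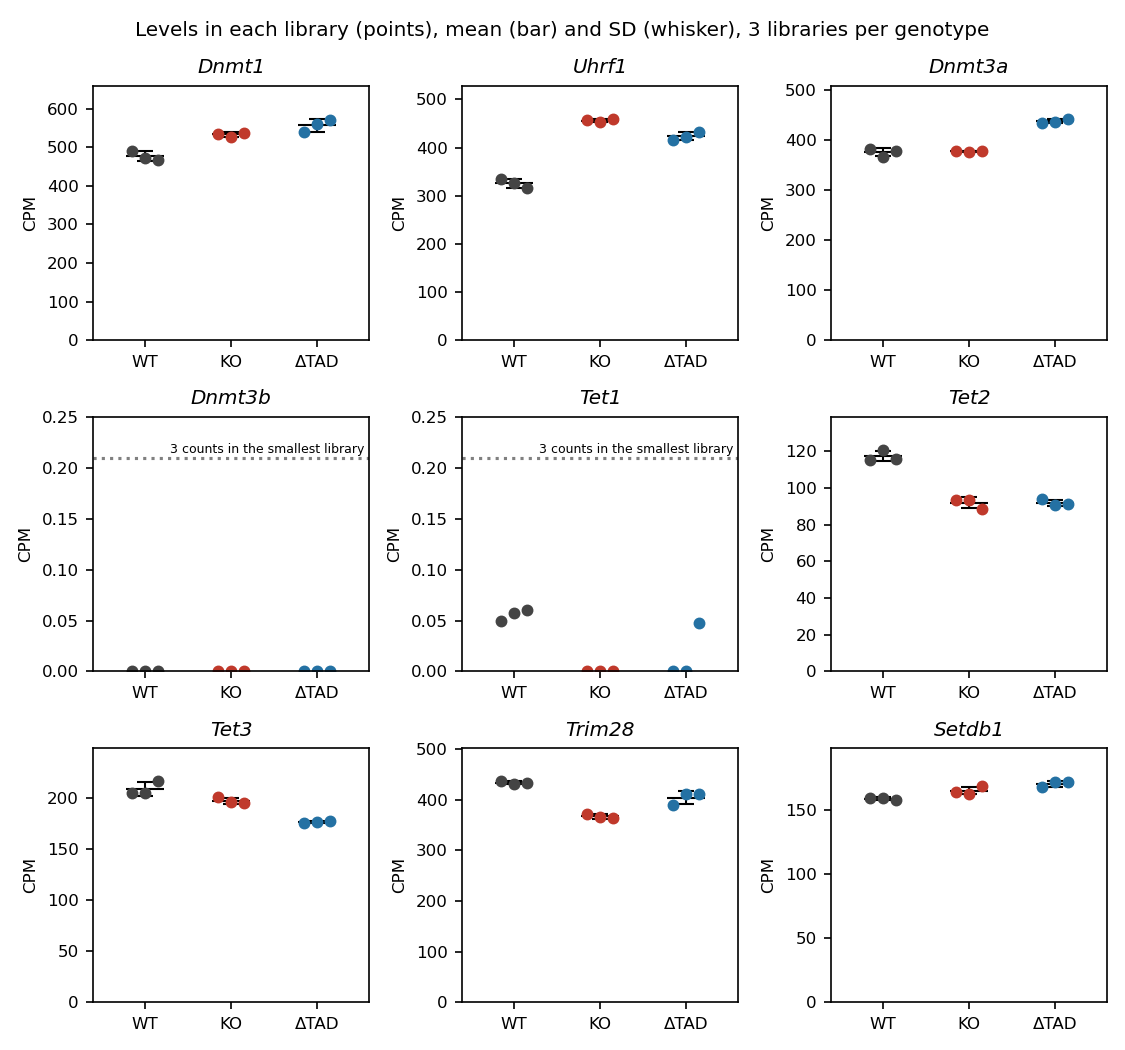
Level of each of the 9 genes in CPM (vertical axis, from 0) in the 3 libraries of each genotype; points are libraries, the wide bar is the mean and the whisker the SD, and the dotted line in the Dnmt3b and Tet1 panels, which carry no mean, is the level that 3 counts have in ΔTAD replicate 1 (0.21 CPM). The Uhrf1 and Tet2 panels show wild-type libraries that do not overlap those of either edited genotype, and in the Dnmt3a panel only the ΔTAD libraries lie apart.

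Uhrf1 (ENSMUSG00000001228, chr17:56303321-56323486, plus strand) was measured at 334, 326.4 and 316.4 CPM in the wild-type libraries, at 456.1, 452.3 and 458.5 in the knock-out libraries and at 416.4, 422.5 and 432.4 in the ΔTAD libraries. The 3 groups did not overlap, and the knock-out libraries were highest. Its log2 fold change was 0.48 in knock-out (standard error 0.0337, adjusted p = 7.6e-12) and 0.38 in ΔTAD macrophages (standard error 0.0337, adjusted p = 5.72e-10). Between the edited genotypes it was 0.10 higher in knock-out macrophages, which missed the threshold (adjusted p = 0.0138) and passed it without ΔTAD replicate 1 (0.12, adjusted p = 0.00586). With library size as the only scaling the difference from wild-type macrophages was 0.47 in knock-out and 0.29 in ΔTAD cells.

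Uhrf1 lies on chromosome 17, where the median over the other 745 tested genes was 0.48 (knock-out) and 0.50 (ΔTAD) on the log2 scale. The value of Uhrf1 differed from this median by 0.00 in knock-out and by −0.12 in ΔTAD macrophages, and 50.1% and 39.7% of the chromosome's genes lay below it. Among the 58 tested genes within 5 Mb, 27 lay below Uhrf1 in knock-out and 18 in ΔTAD macrophages. Over all 9 libraries, the levels most like those of Uhrf1 were those of Irak2 on chromosome 6 (Pearson's r of log2 CPM 0.998), Myo1e on chromosome 9 (0.998) and Clcn7 on chromosome 17 (0.997), a description over libraries that share their genotypes. Irak2, a kinase of Toll-like receptor signalling, differed by 1.11 (knock-out) and 0.85 (ΔTAD) from wild-type cells on the log2 scale.

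Dnmt1 (ENSMUSG00000004099, chr9:20907209-20959888, minus strand) was measured at 490.4, 472.6 and 466.8 CPM in the wild-type libraries. The knock-out libraries had 535.2, 526.7 and 536.5 and the ΔTAD libraries 538.6, 559.1 and 570.7. Every edited library lay above every wild-type library, with a smaller gap than for Uhrf1. The log2 fold change was 0.16 in knock-out (standard error 0.033, adjusted p = 0.000203) and 0.22 in ΔTAD macrophages (standard error 0.033, adjusted p = 2.77e-06), with chromosome 9 medians of −0.02 and −0.03. The edited genotypes differed by −0.06 (95% interval −0.13 to 0.01, adjusted p = 0.13). The call was lost in both genotypes with library size as the only scaling (0.15, adjusted p = 0.0591, and 0.14, adjusted p = 0.0746), and the ΔTAD value was 0.11 with an offset for transcript length and GC content. Since Uhrf1 rose more than Dnmt1, the number of Uhrf1 counts per Dnmt1 count, in which no scaling enters, was 0.678 to 0.691 in wild-type, 0.852 to 0.859 in knock-out and 0.756 to 0.773 in ΔTAD libraries.

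Dnmt3a (ENSMUSG00000020661, chr12:3806007-3914443, plus strand), the de novo enzyme present in these cells, had 382.3, 366 and 377.7 CPM in the wild-type and 377.4, 375.1 and 378.2 in the knock-out libraries. The ΔTAD libraries had 434.6, 434.7 and 441.3. Wild-type and knock-out libraries overlapped, and all 3 ΔTAD libraries lay above them. The log2 fold change was 0.01 in knock-out (95% interval −0.06 to 0.07, adjusted p = 0.897) and 0.22 in ΔTAD macrophages (standard error 0.0327, adjusted p = 3.14e-06). The edited genotypes differed by −0.21 (standard error 0.0327, adjusted p = 1.2e-05), lower in knock-out. With library size as the only scaling the ΔTAD value was 0.13 (adjusted p = 0.0887) and the difference between the edited genotypes −0.14 (adjusted p = 0.0975).

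The chromosome of Dnmt3a moved the other way. On chromosome 12 the median over the other 540 tested genes was −0.52 in knock-out cells and −0.55 in ΔTAD cells on the log2 scale, and 350 and 359 genes were called lower. Dnmt3a lay 0.53 above this median in knock-out and 0.76 above it in ΔTAD macrophages, higher than 86.7% and 91.1% of the genes of the chromosome. Within 5 Mb, 28 of 29 tested genes lay below Dnmt3a in knock-out and 26 of 29 in ΔTAD macrophages, with window medians of −0.53 and −0.64. The medians of the chromosomes of the other tested genes lay between −0.05 and 0.02. The part of the chromosome-wide shifts in the values of Uhrf1 and Dnmt3a was not tested, and without the genes of chromosomes 12 and 17, 1 gene was called higher and 2 lower of 5 in each edited genotype, beside 42.7% of all tested genes elsewhere called in knock-out and 47.7% in ΔTAD macrophages.

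**Figure D2:**
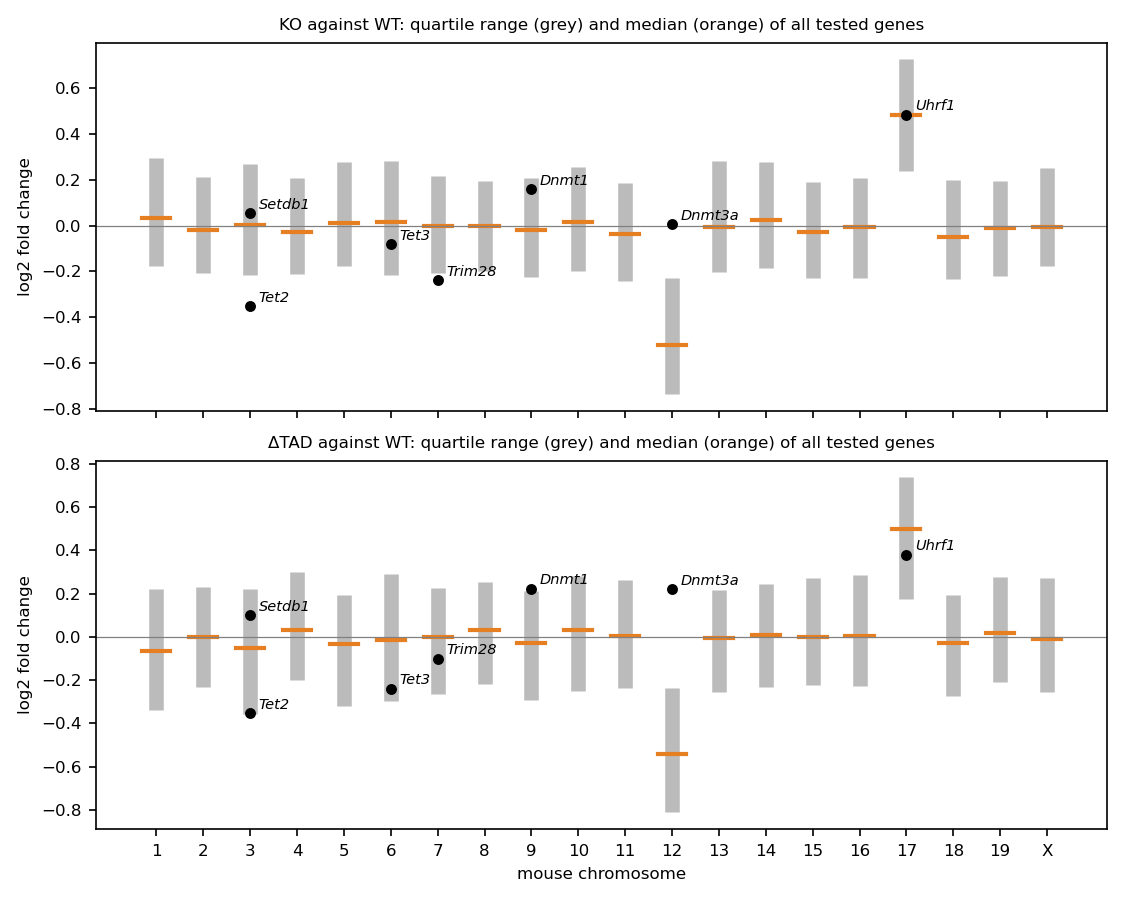
Log2 fold change against wild-type macrophages (vertical axis) by chromosome (horizontal axis), knock-out above and ΔTAD below; grey bars span the quartiles and orange lines are medians of all tested genes of a chromosome, and black points are the 7 genes tested. Uhrf1 sits inside the raised range of chromosome 17 (medians 0.48 and 0.50), whereas Dnmt3a sits above the lowered range of chromosome 12 (medians −0.52 and −0.54).

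Dnmt3b (ENSMUSG00000027478, chr2:153649450-153687730, plus strand), the second de novo enzyme, had 0 counts in all 9 libraries. A count of 0 allows up to 3 counts per library, which is 0.143 to 0.21 CPM here, and this limit covers counting error only. It was not detectable at this depth in any genotype. Tet1 (ENSMUSG00000047146, chr10:62804570-62908996, minus strand), a dioxygenase best known from embryonic stem cells, had 1 count in each wild-type library, 1 count in ΔTAD replicate 3 and 0 in the other 5 libraries. All these values are at or under the floor, so no fold change is given.

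Tet2 (ENSMUSG00000040943, chr3:133463679-133545139, minus strand) was measured at 115.6, 120.7 and 116 CPM in the wild-type libraries. The knock-out libraries had 93.74, 93.78 and 88.74 and the ΔTAD libraries 93.8, 90.85 and 91.28. All edited libraries lay below all wild-type libraries, and the edited genotypes overlapped. The log2 fold change was −0.35 in knock-out (standard error 0.0338, adjusted p = 2.85e-09) and −0.35 in ΔTAD macrophages (standard error 0.0337, adjusted p = 2.01e-09). Between the edited genotypes the difference was 0.00 (95% interval −0.07 to 0.07, adjusted p = 0.95). Chromosome 3 had medians of 0.00 and −0.05, and 48 of the 55 tested genes within 5 Mb lay above Tet2 in knock-out and 41 in ΔTAD macrophages. Tet2 was called in both genotypes under 20 of 21 alternatives, the exception being the demand for a log2 fold change of 1, with values between −0.44 and −0.28.

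Tet3 (ENSMUSG00000034832, chr6:83362373-83459084, minus strand), the TET enzyme with the most counts here, was measured at 205, 205 and 216.9 CPM in the wild-type libraries. The knock-out libraries had 201.2, 196.3 and 195.7 and the ΔTAD libraries 176.1, 176.7 and 178.1. The 3 groups did not overlap, and the ΔTAD libraries were lowest. In ΔTAD macrophages the log2 fold change of −0.24 passed the test (standard error 0.0354, adjusted p = 2.6e-06) and that of −0.08 in knock-out macrophages did not (adjusted p = 0.0595), except with an offset for transcript length and GC content (−0.12, adjusted p = 0.00225). Knock-out macrophages had 0.16 more than ΔTAD macrophages (standard error 0.0354, adjusted p = 0.000725). The number of Tet2 counts per Tet3 count was 0.535 to 0.589 in wild-type, 0.454 to 0.478 in knock-out and 0.512 to 0.533 in ΔTAD libraries.

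Trim28 (ENSMUSG00000005566, chr7:12999114-13031035, plus strand) was measured at 436.6, 430.3 and 434 CPM in the wild-type libraries. The knock-out libraries had 372.7, 366 and 363.4 and the ΔTAD libraries 389.8, 411.7 and 411.7. Wild-type libraries were highest and knock-out libraries lowest, without overlap. The log2 fold change was −0.24 in knock-out (standard error 0.0338, adjusted p = 1.5e-06) and −0.10 in ΔTAD macrophages, where it missed the threshold (adjusted p = 0.0128) and passed it without ΔTAD replicate 1 (−0.10 again, adjusted p = 0.00862). The ΔTAD value was also called under the DESeq2 test (adjusted p = 0.00134) and limma-voom (adjusted p = 0.00286). It was called as well with DESeq2 size factors (adjusted p = 0.00661) and a filter of 10 counts in every library (adjusted p = 0.00526). The offset for transcript length and GC content gave −0.24 in ΔTAD macrophages (adjusted p = 9.02e-08). Knock-out macrophages were 0.14 lower than ΔTAD macrophages on the log2 scale (−0.14, standard error 0.0338, adjusted p = 0.00176), a difference that was not called without knock-out replicate 2 (adjusted p = 0.0112), without ΔTAD replicate 2 (adjusted p = 0.0101), in a fit of only these genotypes (−0.11, adjusted p = 0.0188), with library size as the only scaling (−0.07, adjusted p = 0.482) or with the offset (−0.03, adjusted p = 0.38). In counts, Uhrf1 stood at 0.729 to 0.765 per Trim28 count in wild-type, 1.22 to 1.26 in knock-out and 1.03 to 1.07 in ΔTAD libraries, with no scaling involved.

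Setdb1 (ENSMUSG00000015697, chr3:95323525-95357202, minus strand) was measured at 159.8, 159.8 and 157.8 CPM in the wild-type libraries. The knock-out libraries had 164.5, 163 and 168.7 and the ΔTAD libraries 168, 171.9 and 171.8. Edited libraries lay above wild-type libraries. The gap to the ΔTAD libraries was wider than the range within either group, and the gap to the knock-out libraries was smaller than the range within the knock-out group. The log2 fold change was 0.06 in knock-out (95% interval −0.01 to 0.12, adjusted p = 0.167) and 0.10 in ΔTAD macrophages (95% interval 0.03 to 0.17, adjusted p = 0.0122), neither of which passed the threshold. The ΔTAD value was called under limma-voom (adjusted p = 0.00654), with every gene of at least 1 count kept (adjusted p = 0.00531) and with TMM without chromosomes 12 and 17 (adjusted p = 0.0096), and was 0.01 with library size as the only scaling (adjusted p = 0.887). Setdb1 shares 249 exon bases with Gm37500 and 75 with Cers2 on the opposite strand, Dnmt3a shares 133 with Dnmt3aos and Tet2 shares 43 with Gm42567. The strand setting of the counting is not given in the sources used here, so reads of these short stretches cannot be told apart.

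**Figure D3:**
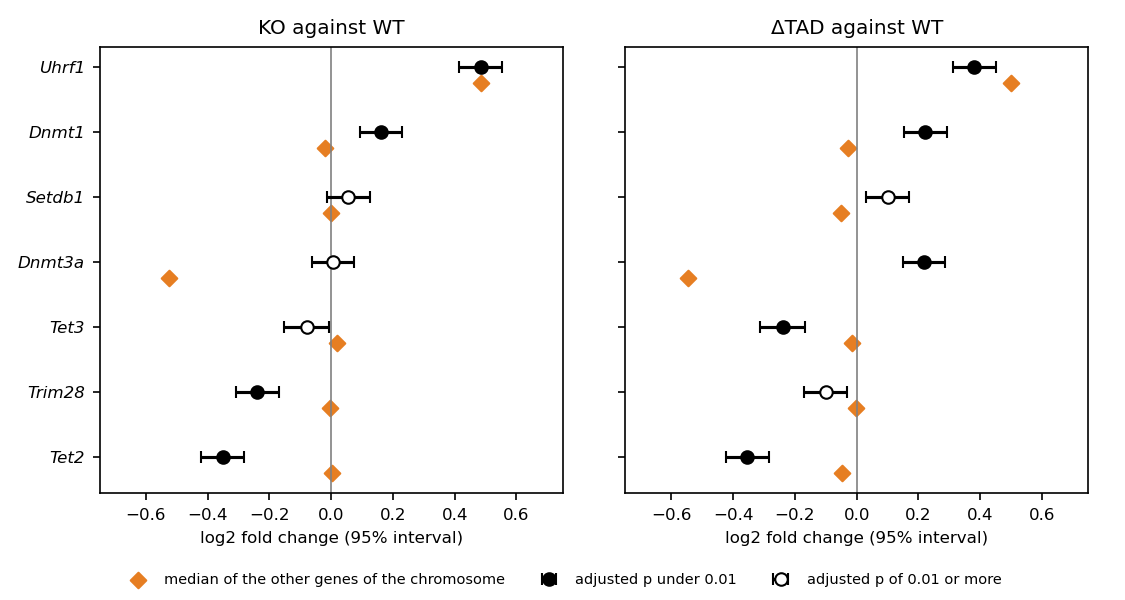
Log2 fold change (horizontal axis) of the 7 genes tested in knock-out (left) and ΔTAD (right) against wild-type macrophages; circles carry 95% intervals and are filled where the adjusted p is under 0.01, and orange diamonds are the median of the other tested genes of the same chromosome. Circle and diamond of Uhrf1 nearly coincide in knock-out macrophages, those of Dnmt3a lie 0.53 and 0.76 apart, and the diamonds of the other genes lie near 0.

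Separation of libraries without overlap was common in these data. It was seen for 6 of the 7 genes in knock-out against wild-type macrophages (59.7% of all tested genes) and for all 7 in ΔTAD against wild-type macrophages (63.1%). In the direct comparison of the edited genotypes, 5 of 7 were separated (52.8%) and 3 were called, with Tet3 higher and Dnmt3a and Trim28 lower in knock-out macrophages (42.9% of the 7 and 33% of all genes). The comparisons with wild-type macrophages share the wild-type libraries, so their values are given side by side only. A small part of the genes expressed in wild-type macrophages was silent in the edited lines. Of 12748 genes with at least 1 CPM in wild-type macrophages, 96 had at most 3 counts in every knock-out library. The number was 52 for the ΔTAD libraries and 40 for both. None of the 9 genes was among them, and Dnmt3b and Tet1, under 1 CPM in wild-type macrophages, could not be counted there.

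Per kilobase of exon, Trim28 led in wild-type macrophages with 104.3 CPM per kb, followed by Uhrf1 with 76.45 and Dnmt1 with 64.61. A middle tier held Setdb1 with 23.22 and Dnmt3a with 22.55, and the TET enzymes followed with 12.52 for Tet3 and 6.962 for Tet2. In knock-out macrophages Uhrf1, at 107.1, 106.2 and 107.7 CPM per kb, stood above Trim28, at 89.64, 88.02 and 87.41. In ΔTAD macrophages the levels of these genes overlapped, at 97.77, 99.2 and 101.5 for Uhrf1 and 93.74, 99 and 99 for Trim28. Setdb1 and Dnmt3a changed places when the longest transcript was used in place of all exons (28.2 and 38.8 CPM per kb in wild-type macrophages), so their order depends on the length taken. In every genotype, the members of the maintenance pair stood above the de novo enzyme and the TET enzymes on this scale.

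The partners of these genes were followed in lists of companion genes, described by counts and medians. Each list is to be read against all tested genes, of which 45.2% (knock-out) and 49.7% (ΔTAD) were called, with a median of 0.00 in both. Among 14 partners of maintenance and methyl donor supply, 12 could be tested, and 1 was higher and 6 lower in knock-out macrophages (58.3% called, median log2 fold change −0.15). In ΔTAD macrophages 4 were higher and 6 lower (83.3%, median −0.13). Dnmt3l, a partner of the de novo enzymes without activity of its own, fell from 3.31 ± 0.472 CPM to 1.06 ± 0.24 in knock-out and 0.418 ± 0.0773 in ΔTAD macrophages (SD, n = 3 each), with log2 fold changes of −1.64 and −2.98. Mat2a, which makes the methyl donor S-adenosylmethionine, fell by 0.43 and 0.59 on the log2 scale. Cdca7l, a relative of the Hells activator Cdca7, was also lower (−0.54 and −0.26). Dmap1, a Dnmt1-associated protein, was higher in ΔTAD macrophages (0.30) and had 0.08 in knock-out macrophages, where it was not called.

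Of the 15 partners of demethylation and repair, 13 were tested, with 1 higher and 5 lower in knock-out (46.2% called, median −0.09) and 3 higher and 4 lower in ΔTAD macrophages (53.8%, median −0.26). The number higher in ΔTAD macrophages was 2 without ΔTAD replicate 1. Cxxc5, a zinc finger protein that binds unmethylated CpG pairs, fell in both (log2 fold changes −3.01 and −2.42). Idh1, which makes the cosubstrate of TET enzymes, rose in both (0.47 and 0.76).

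All 20 readers of methylated DNA and subunits of NuRD, a deacetylase and remodelling complex, were tested. In knock-out macrophages 7 were higher and 5 lower (median 0.05), and in ΔTAD macrophages 5 and 3 (median 0.00). Without ΔTAD replicate 1 in the fit, 7 were higher and 7 lower in knock-out macrophages and 5 and 5 in ΔTAD macrophages. With all libraries, 60% of the list was called in knock-out and 40% in ΔTAD macrophages. Zbtb38, a zinc finger protein that binds methylated DNA, rose in both (0.61 and 0.41). The NuRD subunits Mta3 and Mta1 moved apart, with 0.62 and 0.66 for Mta3, on chromosome 17, and −0.59 and −0.33 for Mta1, on chromosome 12.

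On the histone side of silencing, 21 of 22 genes of H3K9 methylation and heterochromatin were tested. In knock-out macrophages 3 were higher and 4 lower (33.3% called, median −0.03) and in ΔTAD macrophages 3 were higher and 9 lower (57.1%, median −0.09). Higher in both were Ehmt2, the H3K9 methyltransferase G9a (0.54 and 0.66), and Daxx, a chaperone of a histone H3 variant (0.40 and 0.46), both on chromosome 17. Tasor, the scaffold of the HUSH silencing complex, was lower in ΔTAD macrophages (−0.43) and had 0.09 in knock-out macrophages, not called. Of 7 KRAB zinc finger genes, 5 were tested, with 1 higher and 1 lower in knock-out and 2 lower in ΔTAD macrophages (3 without ΔTAD replicate 1). Zfp568 was lower in both genotypes (−0.33 and −0.54), Zfp445, which guards imprints, was lower in ΔTAD macrophages (−0.36, and −0.09 in knock-out macrophages, not called), and Zfp932 was higher in knock-out macrophages (0.61, and 0.18 in ΔTAD macrophages, not called).

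Polycomb, a silencing system that uses histone H3K27 methylation and H2A ubiquitination, was measured through 23 genes. In knock-out macrophages 2 were higher and 7 lower (39.1% called, median −0.09) and in ΔTAD macrophages 4 and 8 (52.2%, median −0.10), shares near those of all tested genes. Bmi1, a core subunit, fell from 117.9 ± 6.37 CPM to 64.3 ± 1.73 in knock-out and 69.35 ± 3.55 in ΔTAD macrophages (SD, n = 3 each), with log2 fold changes of −0.87 and −0.77. Pcgf6, which takes the place of Bmi1 in variant complexes, was lower as well (−0.51 and −0.45). Ring1, a ubiquitin ligase subunit encoded on chromosome 17, was higher (0.56 and 0.50), and Cbx8 was higher in ΔTAD macrophages (0.50, and 0.12 in knock-out macrophages, not called).

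Dnmt1 and Uhrf1 are known to rise in S phase, and 25 genes of S phase and proliferation were therefore counted beside them. In knock-out macrophages 3 were higher and 7 lower (median −0.05), and in ΔTAD macrophages 7 were higher and 3 lower (median 0.01), 40% of the list in each and under the share of all tested genes. When ΔTAD replicate 1 was left out, 5 were higher and 5 lower in ΔTAD macrophages. Pcna, the replication clamp to which Dnmt1 binds, rose from 219 ± 6.66 CPM to 302 ± 7.83 in knock-out and 314.3 ± 7.71 in ΔTAD macrophages (SD, n = 3 each). Chaf1a, a nucleosome assembly factor, rose by 0.48 and 0.62, whereas Rrm2, a subunit of ribonucleotide reductase, fell by 0.89 and 0.76 and Ccne1, a cyclin of S phase entry, by 0.57 and 0.19. Chaf1a lies on chromosome 17 and Rrm2 on chromosome 12. The part of S phase in the values of Uhrf1 and Dnmt1 was not tested.

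The companions of the 7 lists from maintenance partners to S phase, without germline and imprinted genes, were also counted by chromosome. The 6 tested companions on chromosome 17 (among them Mta3, Ehmt2, Daxx, Ring1 and Chaf1a) were all called higher in both edited genotypes, beside 66.8% and 62.9% of all tested genes of the chromosome. The 4 on chromosome 12 (among them Cdca7l, Mta1 and Rrm2) were all called lower in both, beside 64.7% and 66.4% of all tested genes there. Of the 109 companions of these lists elsewhere, 12 were higher and 31 lower in knock-out macrophages (39.4% called, beside 42.7% of all genes elsewhere) and 20 were higher and 31 lower in ΔTAD macrophages (46.8%, beside 47.7%). Dnmt3a, on chromosome 12 but not in these lists, differed from the 4 companions there. It was not called in knock-out and was called higher in ΔTAD macrophages. Of all tested genes of the chromosome, 68.6% were called in knock-out macrophages and 4.99% were called higher in ΔTAD macrophages.

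**Figure D4:**
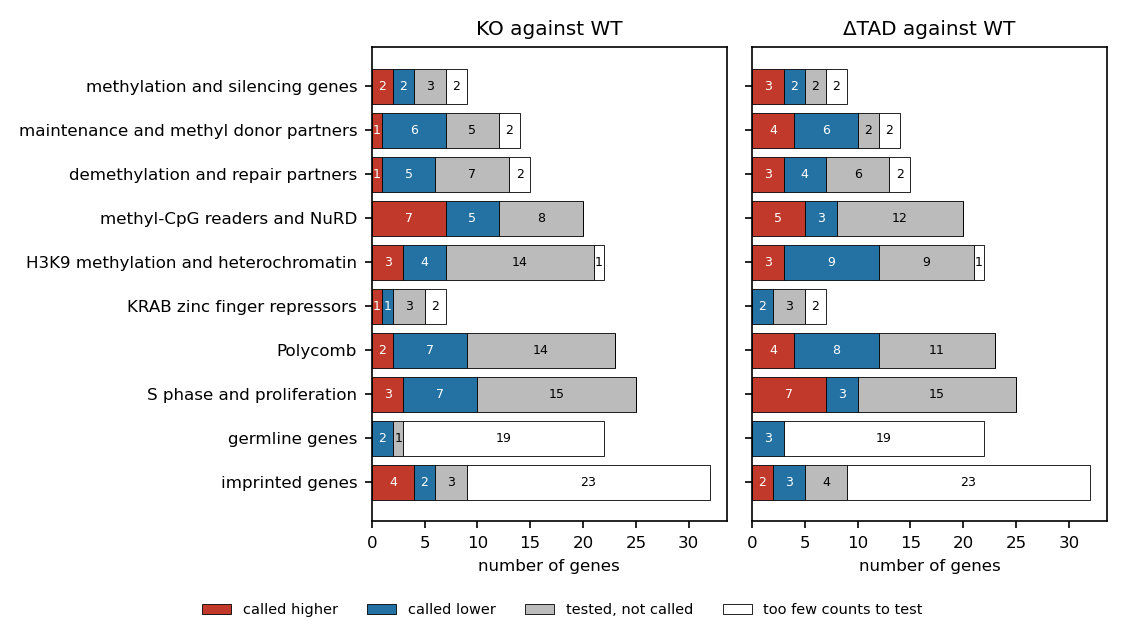
Number of genes (horizontal axis) in the methylation and silencing set and in 9 companion lists that were called higher, called lower, tested and not called, or had too few counts to test, in knock-out (left) and ΔTAD (right) against wild-type macrophages. Most germline (19 of 22) and imprinted (23 of 32) genes had too few counts in all 3 genotypes, while all 20 readers and NuRD genes could be tested. The called parts of the germline bars are not read as a result, since Tex101 passed the filter on low counts through its wild-type level.

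Genes whose promoters are known to be silenced by methylation outside the germline were read out in the same libraries. Of 22 such germline genes, 18 were at or under 3 counts in every library, 10 of them at 0, and 3 could be tested. Tex101 passed the filter on low counts through its wild-type level, so no count over the tested genes is given. Rhox5, an X-linked homeobox gene, was on in wild-type macrophages at 58.67 ± 3.1 CPM and fell to 12.28 ± 0.616 in knock-out and 7.23 ± 0.8 in ΔTAD macrophages (SD, n = 3 each), with log2 fold changes of −2.26 and −3.01. Tex101, a germ cell surface protein gene, had 5.75 ± 0.588 CPM in wild-type macrophages and 1 count in each knock-out library, a ratio of 102.7 in summed counts per scaled library size (95% counting interval 34.8 to 501). Its log2 fold change in ΔTAD macrophages was −2.91. Piwil2, a Piwi protein of the germline, was lower in ΔTAD macrophages (−0.72, adjusted p = 1.1e-05) and had −0.27 in knock-out macrophages (adjusted p = 0.043, not called).

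Of 32 imprinted genes, most of which rely on maintained methylation of one parental copy, 22 were at or under 3 counts in every library and 9 were tested. In knock-out macrophages 4 were higher and 2 lower, and in ΔTAD macrophages 2 were higher and 3 lower. Igf2r, the receptor that clears the growth factor Igf2, was higher in knock-out macrophages, at 1481 ± 29 CPM against 785.3 ± 28.3 in wild-type (SD, n = 3 each), which is 0.91 on the log2 scale. In ΔTAD macrophages it had 0.06 (adjusted p = 0.0683). Airn, the noncoding RNA that runs against Igf2r, had 0.27 in knock-out (not called) and was higher in ΔTAD macrophages (0.69). Both lie on chromosome 17, and without the strand setting their shared reads cannot be told apart. Kcnq1ot1, another antisense RNA of an imprinted domain, fell by 0.45 and 1.11 on the log2 scale, and Peg13 by 1.28 and 0.61. All levels above are of RNA, and DNA methylation was not analysed here.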

How the data were processed

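Total RNA of unstimulated RAW264.7 cells was depleted of ribosomal RNA by the authors and sequenced as single reads, which they trimmed with Trimmomatic, aligned to GRCm38 with HISAT2 and counted on Ensembl genes with HTSeq. Per the labels the versions were 0.36 for Trimmomatic and 2.3.4.3 for HISAT2; the study's methods give other versions. The deposited values are raw counts per gene, 1 list per library with 55487 identifiers and 5 tally lines, without normalization. The tally lines, 46.77% to 53.35% of the records, were left out.

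Groups came from the genotype labels. The test was that of edgeR 4.0.16, run in R 4.3.3 (TMM scaling, filterByExpr with a minimum count of 10, 1 quasi-likelihood fit of all 9 libraries, Benjamini-Hochberg adjustment over 14312 genes, threshold 0.01). CPM use TMM-scaled library sizes and the correlation of log2 CPM a prior count of 2. Alternatives used DESeq2 1.42.0 and limma 3.58.1, among others. The fit was tested on simulated data. It recovered 39.8% (knock-out) and 49.4% (ΔTAD) of simulated log2 changes of 0.3 in size, and 82.4% and 87.6% of changes of 1. Many changes of the smaller size were thus missed. Positions and exon lengths are those of GENCODE M21, start regions those of RefSeq on GRCm38.p6. All 9 genes matched both. The 9 genes, the companion lists and the rule for naming genes (in each list the up to 4 called genes with the largest change in either edited genotype) were chosen with earlier results of these data known. Some genes that this rule names are counted in their lists but not reported here. Replicate numbers did not pair the libraries. Protein sequences were not used here.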

Additional observations from a re-analysis of the deposited data

How the results depend on the processing

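Across 21 alternatives (9 of which leave out 1 library each), no called gene value changed direction, and 5 of 21 gene values kept their side of the threshold in all, each of them not called. Requiring a log2 fold change of 1 or more in size left 0 genes called in either direction in all 3 comparisons. No gene value was that large, so every called value had to lose its call there. For Uhrf1 and Tet2 in both edited genotypes against wild-type, this was the only alternative that changed the call. The same held for Trim28 in knock-out and Tet3 in ΔTAD against wild-type, and for Tet3 between the edited genotypes. With library size as the only scaling, 1 gene was called higher in knock-out and 1 in ΔTAD macrophages against wild-type (Uhrf1 in both), 0 were lower in knock-out against ΔTAD macrophages, and of all genes called in ΔTAD macrophages 39.6% were higher in place of 52.9%; between the edited genotypes it was 69% in place of 42.1%. In knock-out against ΔTAD macrophages 2 genes were called higher under the DESeq2 test, limma-voom, DESeq2 size factors, a filter of 10 counts in every library, a fit of only these genotypes, a threshold of 0.05, TMM without chromosomes 12 and 17 and an offset for transcript length and GC content, the added gene being Uhrf1. A fit of only these genotypes and the offset each left 1 called lower. Leaving out 1 library gave 1 to 2 higher and 1 to 2 lower in that comparison, 3 higher and 2 to 3 lower in ΔTAD and 2 and 2 in knock-out against wild-type macrophages. The causes of these changes were not tested.

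Libraries with the same replicate number did not deviate together (correlations of −0.07 to 0.02), so the numbers are names only. With the replicate number as a block, the counts of called genes stayed at 2 higher and 2 lower in knock-out and 3 and 2 in ΔTAD against wild-type and 1 and 2 between the edited genotypes. After seeing the data, companion lists were counted without ΔTAD replicate 1, and genes outside chromosomes 12 and 17 were counted apart. Depth limits Dnmt3b and Tet1, for which up to 3 counts per library cannot be told from 0.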
